A study of Mus musculus with 2 samples.

Results

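Leukocyte adhesion molecules are the surface proteins by which blood leukocytes hold on to a vessel wall and leave the blood. The account below follows 9 of them, chosen by name from the 32285 genes of the deposited matrices: the endothelial selectins Selp and Sele, the immunoglobulin-type ligands Icam1 and Vcam1, the selectin ligand Selplg, and the integrin chains Itgam, Itgal, Itgb2 and Itga4. All 9 were found, each as 1 row. In textbook accounts leukocytes first roll on selectins, which bind glycans carried by the Selplg product PSGL-1, and then arrest when integrins bind ICAM-1 or VCAM-1. Itgam and Itgal encode the alpha chains that pair with the beta chain of Itgb2 to form Mac-1 and LFA-1, which bind ICAM-1, and Itga4 encodes the alpha chain of VLA-4, which binds VCAM-1. TAK1, the kinase that takinib inhibits, acts upstream of NF-kB, a family of factors known to drive Sele, Icam1 and Vcam1 in inflamed endothelium.

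Single cells were taken from tumours of the pancreas in the KPPC mouse, a genetically engineered model of pancreatic ductal cancer whose alleles and Cre driver are not given in the sources used here. The mice were 6 weeks old. One library came from vehicle-treated tumour and the other from tumour treated with takinib at 50 mg/kg for 14 days, and the number of mice behind each library is not given. With 1 library in each of the 2 groups no test was possible, so treatment and any other difference between the libraries cannot be told apart.

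A level is given in CPM, counts per 1000000 UMIs (unique molecules), from the summed cells of 1 class and library. Intervals in square brackets are 95% intervals, exact Poisson for levels and exact conditional binomial for the log2 ratio of takinib over vehicle, and they cover counting error only. A class of cells made from marker genes carries the word "like". A gene was called higher or lower in takinib when its ratio was past 2-fold, in classes of at least 50 cells per library and with at least 20 summed counts.

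The libraries held 9558 vehicle cells with 42000538 UMIs and 25183 takinib cells with 119726977 UMIs after filtering, at a median of 3556 and 2887 UMIs per cell. The vehicle library had 4697 macrophage-like, 261 neutrophil-like, 1706 epithelial-like, 700 fibroblast-like and 707 endothelial-like cells, and the takinib library had 6156, 11404, 1869, 349 and 101. Immature neutrophil-like, granulocyte precursor-like and erythroid-like cells numbered 8, 3 and 4 in vehicle and 700, 247 and 542 in takinib. A median of 8.70% of UMIs were mitochondrial in vehicle and 1.79% in takinib. In vehicle, 3087 cells had Y-linked UMIs and no Xist, and 1075 had Xist and no Y-linked UMIs, whereas no takinib cell was of the first kind, so the libraries also differed in the sex of the mice. The libraries shared 400 cell barcodes among those that passed the filters. All 9 neutrophil markers had counts in every takinib class, and their summed level outside the neutrophil lineage was 5194 to 48255 CPM in takinib against 116 to 2591 CPM in vehicle (no marker at 0, except Retnlg in vehicle T-like cells). Neutrophil markers, mitochondrial share and sex thus differed between the libraries along with the members, and their part in the results was not tested, except where values without a neutrophil profile or with female vehicle cells are given.

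Positions are those of whole genes on GRCm38 (GENCODE M21). Selp (ENSMUSG00000026580, chr1:164115264-164150026, plus strand) and Sele (ENSMUSG00000026582, chr1:164048234-164057677, plus strand) are neighbours, as are Itgal (ENSMUSG00000030830, chr7:127296260-127335138, plus strand) and Itgam (ENSMUSG00000030786, chr7:128062640-128118491, plus strand) on a larger scale. Icam1 (ENSMUSG00000037405) is at chr9:21015985-21028817 on the plus strand and Vcam1 (ENSMUSG00000027962) at chr3:116109949-116129688 on the minus strand. Selplg (ENSMUSG00000048163) is at chr5:113818536-113832644 on the minus strand, Itgb2 (ENSMUSG00000000290) at chr10:77530252-77565708 and Itga4 (ENSMUSG00000027009) at chr2:79255426-79333123, both on the plus strand. Genes on the opposite strand overlap 4 members and held few counts beside theirs. Cerkl had 72 vehicle and 165 takinib UMIs beside 2592 and 9553 of Itga4, and Gm16548 had 23 and 68 beside 715 and 976 of Selp. Whether the counting used strand is not given in the sources used here.

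The 250 bases before the RefSeq start of the 2 selectin genes and of Itgam are shown because Selp and Sele had lower values in takinib endothelial-like cells and Itgam had higher values in 7 classes. Capitals mark GAGGAA on either strand, the core of sites for the myeloid factor PU.1.
Selp, chr1:164115014-164115263: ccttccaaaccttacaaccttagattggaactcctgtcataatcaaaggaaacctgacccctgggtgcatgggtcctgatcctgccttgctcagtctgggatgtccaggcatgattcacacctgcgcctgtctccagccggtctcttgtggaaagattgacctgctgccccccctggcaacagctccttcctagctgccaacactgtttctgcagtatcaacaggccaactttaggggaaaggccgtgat
Sele, chr1:164047984-164048233: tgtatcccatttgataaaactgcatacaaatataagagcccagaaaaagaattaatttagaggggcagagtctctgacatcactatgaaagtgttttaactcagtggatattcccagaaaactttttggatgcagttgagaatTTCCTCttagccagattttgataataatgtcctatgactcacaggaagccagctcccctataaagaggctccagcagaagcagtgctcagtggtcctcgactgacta
Itgam, chr7:128062390-128062639: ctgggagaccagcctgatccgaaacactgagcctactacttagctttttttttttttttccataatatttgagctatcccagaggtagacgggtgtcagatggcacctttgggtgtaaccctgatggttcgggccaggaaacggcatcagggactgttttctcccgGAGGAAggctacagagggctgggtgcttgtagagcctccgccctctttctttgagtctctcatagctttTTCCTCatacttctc
The windows are from RefSeq (GRCm38.p6, plus strand), where 5 of the 9 members had an entry. GAGGAA began 84 and 15 bases before the start of Itgam and 107 before that of Sele, and was in 23.3% of 32851 windows of the same length. The kappaB motif was sought by a strict consensus with no mismatch allowed. It was in 3.90% of windows and in none of those of Icam1, Selp, Sele, Itgam and Itga4. Sites that depart from the consensus were not counted, so a window without a match may still hold a kappaB site. These are matches of letters only.

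Of 72 pairs of a member and a class, 61 could be compared in 8 classes. In 19 of them the member was past 2-fold higher in takinib (31.1%, where 8.75% of all gene and class pairs were) and in 4 past 2-fold lower (6.56%, against 14.7%), at a median log2 ratio of 0.52. By class, 5 of 8 members compared were higher in epithelial-like cells (8.49% of all genes there), 4 of 7 in B-like (13.9%), 4 of 9 in endothelial-like (6.31%), 2 of 8 in macrophage-like (7.91%) and 2 of 7 in monocyte-like cells (11.5%). T-like (9.34%) and fibroblast-like cells (7.70%) had 1 of 7 each and neutrophil-like cells 0 of 8 (6.44%). Itgam gave 7 of the 19, being higher in every compared class but neutrophil-like cells. Once a neutrophil profile was taken off each takinib class in proportion to its S100a8 and S100a9 UMIs, 8 of 59 pairs were higher (7.68% of all pairs) and 12 lower (14.0%). Both values are given below for each pair whose call differed.

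**Figure D1:**
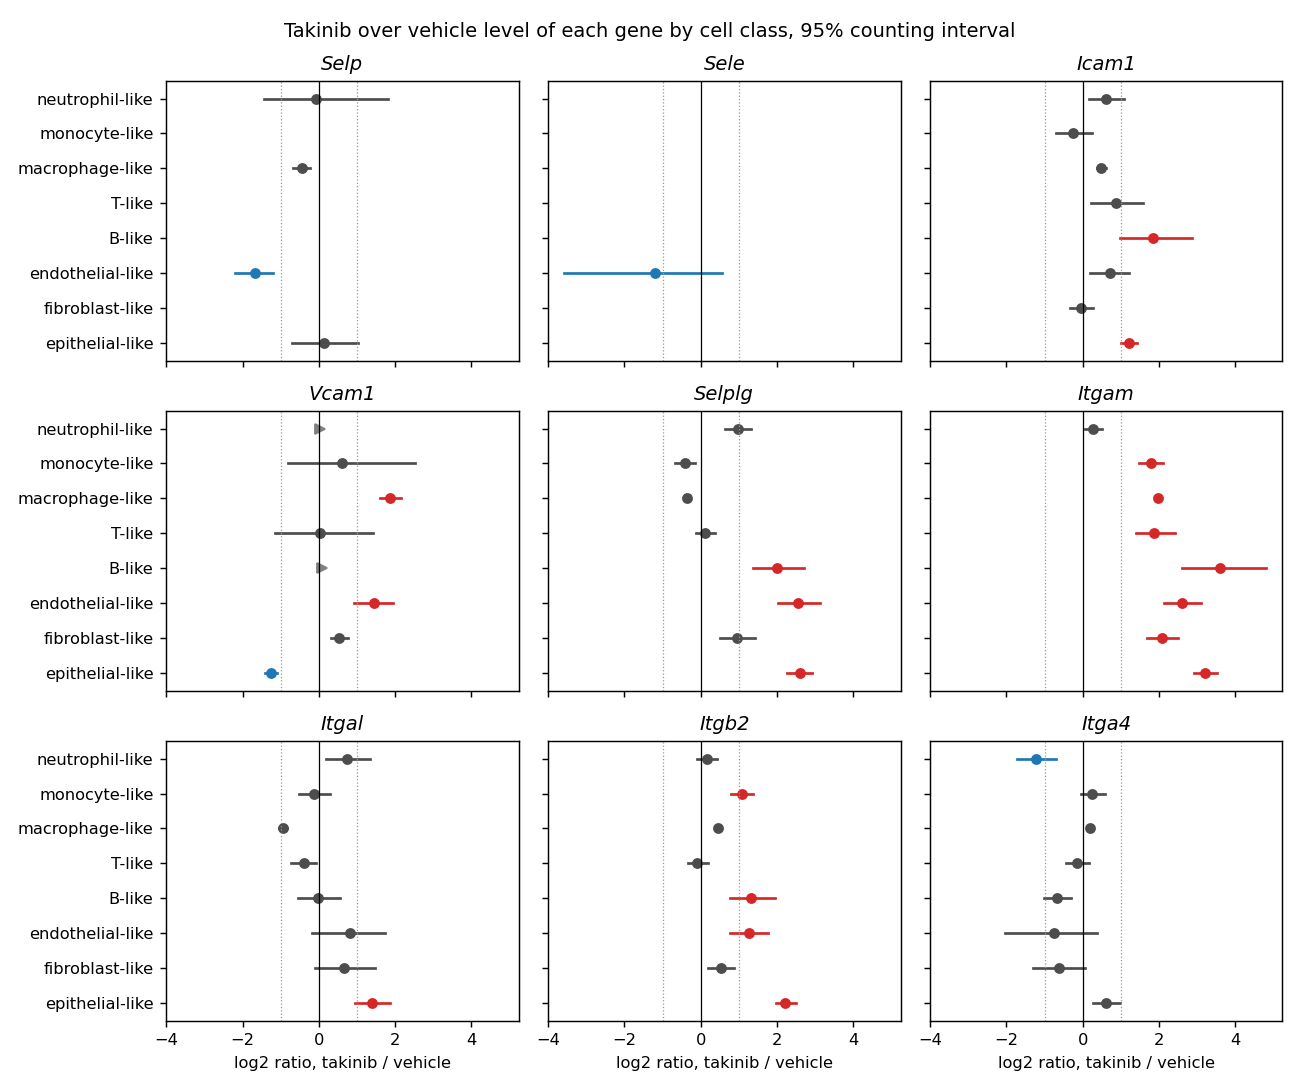
The log2 ratio of takinib over vehicle level (x axis) of each gene in each cell class (y axis), with 95% counting intervals. Red points are past 2-fold higher, blue past 2-fold lower, dotted lines mark 2-fold and grey triangles are lower bounds against a vehicle count of 0. Itgam is red in 7 of 8 classes and Selp and Sele are blue in endothelial-like cells.

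Selp encodes P-selectin, which endothelium and platelets store in granules and bring to the surface. In vehicle its level was 183 CPM [165, 202] in endothelial-like cells, far above acinar-like cells at 22.8 and macrophage-like cells at 13.5, and in takinib it was 56.9 CPM [40.5, 77.8], again the highest of all classes. The endothelial-like intervals of the libraries did not overlap, and the log2 ratio was -1.69 [-2.20, -1.21], from 384 and 39 UMIs, in a class where 14.0% of all genes compared were past 2-fold lower. With every cell thinned to 1000 UMIs, a Selp UMI was found in 13.01% of vehicle and 1.98% of takinib endothelial-like cells (20.5% and 14.9% unthinned), beside 0.117% and 0.375% of epithelial-like cells. Taking off the neutrophil profile left a ratio of -1.42, and using only the vehicle cells of female origin gave -2.60. At the finer clustering, which set lymphatic endothelial-like cells aside, the level was 200.2 CPM in vehicle and 67.9 in takinib.

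Endothelial-like cells held 53.7% of the vehicle library's Selp UMIs. In takinib, with 101 such cells, macrophage-like cells held 43.8% and neutrophil-like cells 30.8%. Immature neutrophil-like cells came after endothelial-like cells in takinib at 21.1 CPM [16.5, 26.6], above neutrophil-like cells at 11.4. In vehicle, barcodes of 1 to 100 UMIs, which hold mostly free RNA, had Selp at 23.0 CPM [12.9, 37.9], above each vehicle class other than endothelial-like cells. Among macrophage-like cells Selp was lower in the cluster led by Ccl8, at 43.5 CPM in vehicle and 12.6 in takinib, a ratio of -1.79 [-2.28, -1.29] where 5.90% of all genes were past 2-fold lower. The other 3 macrophage-like clusters compared had ratios between -0.84 and 0.30.

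Sele encodes E-selectin, made by activated endothelium. It was rare, with 26 UMIs in vehicle and 9 in takinib over all kept cells. Endothelial-like cells held 21 of the vehicle UMIs, at 10.0 CPM [6.20, 15.3], and 3 of the takinib UMIs, at 4.38 [0.903, 12.8]. The ratio of -1.19 was past 2-fold lower, but its interval from -3.58 to 0.55 spans no difference, so a difference was not detectable at this depth, and without the neutrophil profile the ratio was -0.85, short of 2-fold. No other class had over 3 Sele UMIs in a library.

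Vcam1, the VLA-4 ligand, was past 2-fold higher in takinib in endothelial-like and macrophage-like cells and lower only in epithelial-like cells. In endothelial-like cells it was 33.4 CPM [26.0, 42.2] in vehicle and 90.5 [69.4, 116] in takinib, a log2 ratio of 1.44 [0.92, 1.95], and 1.76 without the neutrophil profile. In these cells Vcam1 was thus higher and Selp lower, and the 2 intervals lie on opposite sides of 0. Fibroblast-like cells, the class with the most Vcam1 in vehicle, had 80.6 CPM [70.6, 91.6] there and 117 [107, 129] in takinib, a ratio of 0.54. At the finer clustering, which set apart a cluster with mesothelial markers, the fibroblast-like ratio was 0.16.

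Epithelial-like cells held 60.1% of the vehicle library's Vcam1 UMIs. Their level was 62.3 CPM [57.8, 67.1] in vehicle and 26.1 [23.9, 28.3] in takinib, a log2 ratio of -1.26 [-1.42, -1.10], in a class where 10.5% of genes were past 2-fold lower. The ratio was -1.57 in the cluster led by Hmga2 and Cdkn2a and -0.89 in that led by Gkn3, and 8.72% of genes in the former were past 2-fold lower. Another, small epithelial-like cluster led by Mptx1, Spink4 and Muc2, genes of intestinal epithelium, went the other way. It had no Vcam1 UMI in 102 vehicle cells and 61 UMIs in 81 takinib cells, so its log2 ratio was at least 4.83, taking 3 counts as the limit for vehicle. All 7 members compared in that cluster were past 2-fold higher in takinib, as were 17.3% of all genes. Among them were Itgam, at 11.3 CPM in vehicle and 378 in takinib, and Itgb2, at 18.4 and 237. Values without the neutrophil profile are given for whole classes only, so its part in this cluster was not tested.

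In macrophage-like cells Vcam1 was low, at 6.36 CPM [5.31, 7.55] in vehicle and 23.2 [21.8, 24.7] in takinib, a ratio of 1.87. Most of the takinib UMIs, 773 of 998, were in the cluster led by Ccl8, Cbr2 and Cd163. There the level was 37.5 CPM in vehicle and 106 in takinib, a ratio of 1.499 [1.09, 1.94], where 7.26% of genes were past 2-fold higher. The vehicle level over all macrophage-like cells was under that of the barcodes of 1 to 100 UMIs, 19.9 CPM.

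Erythroid-like cells, almost absent from vehicle, had the highest Vcam1 level of any class, 527 CPM [505, 549], and held 46.9% of the takinib library's Vcam1 UMIs. These UMIs were in 117 of the 542 cells, at a median of 15 and up to 73 per cell. Set against the 425 cells without one, the 117 cells had summed macrophage markers of 16960 against 1431 CPM. Summed erythroid markers were 57824 against 61027 CPM, but the sum of the 117 cells came mostly from a minority of them. Their median share of erythroid marker UMIs was 0.277%, with a highest value of 39.8%, against a median of 3.03% in the 425 cells. Their median share of macrophage marker UMIs was 1.96%, against 0.0311%. In 76 of the 117 cells erythroid markers were under 1% of UMIs, a limit chosen after the values were seen, and these 76 held 57.5% of the Vcam1 UMIs of the class. Of the 425 cells without Vcam1, 146 were also under 1%. Genes noted after their values were seen told the same cells apart. Spic, a transcription factor of splenic red pulp macrophages, was at 420 against 0.826 CPM, Cd5l at 1223 against 0.275, Hmox1, the haem-degrading enzyme, at 2681 against 71.6 and Slc40a1, the iron exporter, at 1532 against 44.1. Klf1, an erythroid transcription factor, was at 52.2 against 163 CPM and Itga4 at 91.0 against 220 CPM. The Vcam1 of this class thus lay mostly in cells with macrophage RNA, many of them with little erythroid RNA. The class name goes against the markers of the 76 cells under 1%, whereas the other cells with Vcam1 had erythroid markers at 1% or more. The 425 cells without Vcam1 had more Itga4, the gene of the VLA-4 alpha chain.

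**Figure D2:**
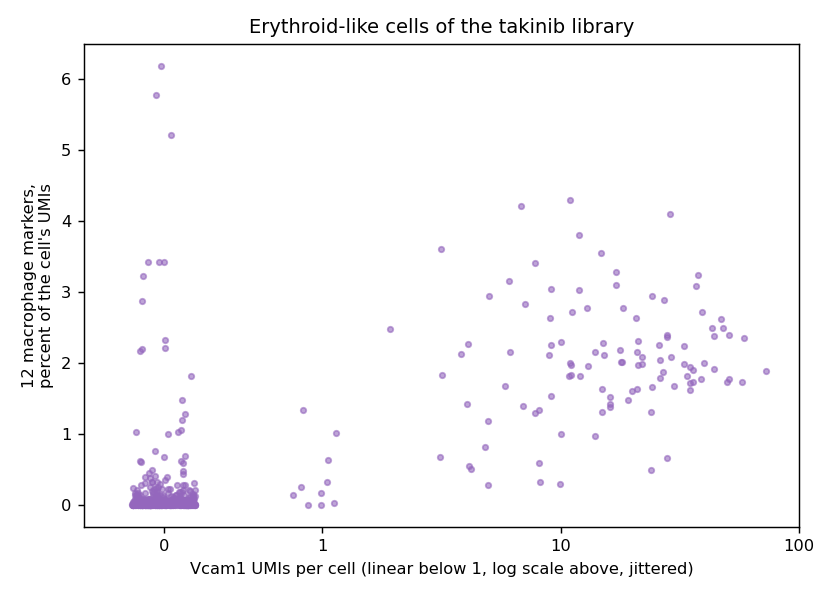
Each point is 1 of the 542 erythroid-like cells of the takinib library, with its Vcam1 UMIs on the x axis and the percent of its UMIs from 12 macrophage markers on the y axis. The 117 cells with Vcam1 UMIs mostly lie above the bulk of the 425 cells at 0.

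Icam1, the ligand of LFA-1 and Mac-1, was most abundant in neutrophil-like cells of both libraries, at 122 CPM [87.7, 166] in vehicle and 186 [181, 191] in takinib, a log2 ratio of 0.60 [0.16, 1.08]. In vehicle that interval overlapped monocyte-like cells at 100.4 CPM. Neutrophil-like cells held 48.3% of takinib Icam1 UMIs, and macrophage-like cells 55.2% of those in vehicle. Over all kept cells Icam1 was 36.7 CPM in vehicle and 84.7 in takinib, a ratio of 1.21, but it was 0.66 when takinib classes were weighted as in vehicle.

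Away from neutrophils Icam1 was past 2-fold higher in epithelial-like cells, 21.5 CPM [18.9, 24.4] against 50.0 [47.1, 53.1], a ratio of 1.22, and in B-like cells, 28.1 against 101 CPM, a ratio of 1.85. Without the neutrophil profile these were 0.83 and 0.71, neither past 2-fold. In B-like cells the ratio was 0.27 at the finer clustering, which set apart 568 takinib cells of mixed B and neutrophil markers. Endothelial-like Icam1 was 47.2 CPM [38.4, 57.5] in vehicle and 77.3 [57.9, 101] in takinib, a ratio of 0.71, which was 0.03 without the neutrophil profile. Macrophage-like cells had a ratio of 0.49, fibroblast-like cells -0.03 and monocyte-like cells -0.24. At the finer clustering, without dendritic-like cells, the monocyte-like ratio was 0.56.

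**Figure D3:**
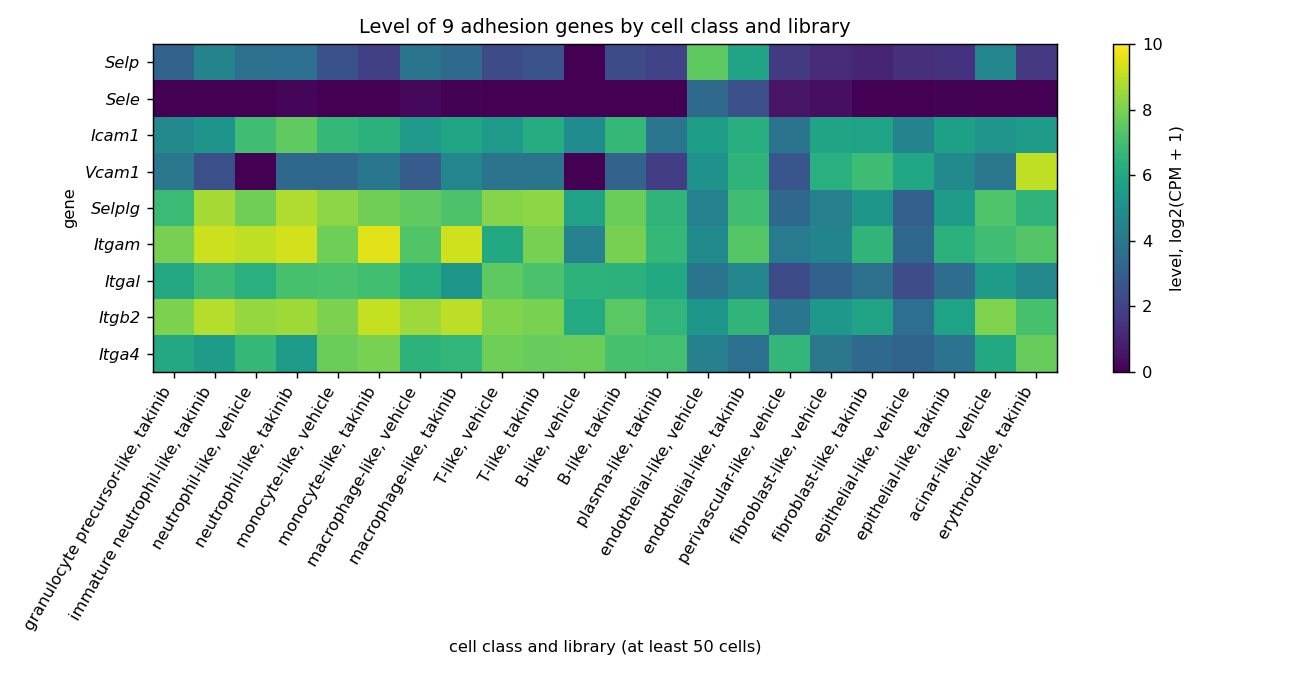
Colour gives the level, log2(CPM + 1), of each gene (rows) in each cell class and library of at least 50 cells (columns). Selp and Sele are brightest in endothelial-like cells, Vcam1 in erythroid-like takinib cells at 527 CPM, and Itgam in the myeloid classes of takinib.

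Selplg encodes PSGL-1, the main selectin ligand of leukocytes. In vehicle, monocyte-like cells at 304 CPM [254, 360], T-like cells at 290.5 [246, 341] and neutrophil-like cells at 226 [178, 283] had overlapping intervals. In takinib the order was clear at the top, with neutrophil-like cells at 445 CPM [437, 453], immature neutrophil-like cells at 403 [382, 425] and T-like cells at 316 [297, 335]. The ratio was 0.97 [0.65, 1.32] in neutrophil-like cells, just short of 2-fold, and -0.36 in macrophage-like and 0.12 in T-like cells. Selplg was called higher in B-like, endothelial-like and epithelial-like cells with ratios of 2.00, 2.56 and 2.59. Without the neutrophil profile those values were 0.28, 0.62 and 0.36, none past 2-fold. Fibroblast-like Selplg had a ratio of 0.95 with the profile and -4.49 without it, which left 3 takinib UMIs.

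Itgam, the alpha chain of Mac-1, had the highest log2 ratio of the 9 over all kept cells, 93.3 CPM in vehicle and 458 in takinib, a log2 ratio of 2.30 [2.25, 2.34]. Weighted as the vehicle classes the ratio was 1.98. In macrophage-like cells it was 156 CPM [151, 162] in vehicle and 618 [611, 626] in takinib, a ratio of 1.98 [1.93, 2.04], and 1.98 without the neutrophil profile, where 7.91% of genes were past 2-fold higher. Monocyte-like cells had 219 CPM [177, 269] and 757 [733, 782], a ratio of 1.79, and 1.81 without the profile. At the finer clustering, which set dendritic-like cells apart, the monocyte-like ratio was 1.25. Thinned to 1000 UMIs, an Itgam UMI was in 12.7% of vehicle and 40.0% of takinib macrophage-like cells (32.7% and 78.9% unthinned), beside 1.95% and 15.7% of B-like cells.

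The macrophage-like cells of the libraries lay mostly in different clusters, 3450 of 4697 vehicle cells in that led by H2-Ab1 and 2297 of 6156 takinib cells in that led by U90926 and Saa3, which had 7 vehicle cells. Itgam was 1029 CPM in the latter, the highest of any cluster. It was also higher within each of the 4 clusters with enough cells of both libraries. The H2-Ab1 cluster had 128 and 445 CPM, a ratio of 1.80 [1.69, 1.90], and the proliferating cluster led by Pclaf had 169 and 392, a ratio of 1.21. Past 2-fold higher were 4.33% and 5.27% of all genes in these clusters. The clusters led by Ccl8 and by Car4, Chil3 and Marco had smaller ratios of 0.67 and 0.57.

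In neutrophil-like cells Itgam differed little, at 521 CPM [447, 605] in vehicle and 633 [623, 642] in takinib, a ratio of 0.28. In the classes outside the myeloid lineage the value without the neutrophil profile was smaller. The ratios of 3.21 in epithelial-like, 2.61 in endothelial-like, 2.08 in fibroblast-like and 1.88 in T-like cells were 2.01, 0.40, 0.96 and 1.42 without the neutrophil profile. The ratio of 3.60 in B-like cells, from 8 and 701 UMIs, could not be computed then, since too few Itgam UMIs were left.

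Itgal, the alpha chain of LFA-1, was highest in T-like cells, at 182 CPM [147, 222] in vehicle and 137 [125, 151] in takinib. The vehicle interval overlapped monocyte-like cells at 138 CPM [105, 178], and the takinib interval overlapped neutrophil-like cells at 135 CPM. In macrophage-like cells Itgal went against Itgam, at 73.4 CPM [69.7, 77.2] in vehicle and 38.2 [36.4, 40.1] in takinib, a ratio of -0.94 [-1.04, -0.84], just short of 2-fold. Without the neutrophil profile it was -1.22, past 2-fold lower. The ratio was -0.65 in the H2-Ab1 cluster and -0.57 in the Pclaf cluster, and -0.07 in the Car4 cluster. Itgam UMIs thus made up 68.1% [66.7, 69.4] of the Itgam and Itgal UMIs of macrophage-like cells in vehicle and 94.2% [93.9, 94.5] in takinib. For monocyte-like cells the shares were 61.4% [53.2, 69.2] and 85.7% [84.6, 86.8], and for neutrophil-like cells 86.6% [81.2, 91.0] and 82.5% [81.9, 83.0]. The monocyte-like shares also include dendritic-like cells, in unlike proportion in the libraries.

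Itgb2, the beta chain that both need, differed less than either of them in macrophage-like cells. It was 374 CPM [366, 382] in vehicle and 516 [509, 522] in takinib macrophage-like cells, a ratio of 0.46. Monocyte-like cells had 261 CPM [215, 315] and 550 [529, 571], a ratio of 1.07 [0.80, 1.36], past 2-fold as were 11.5% of genes in that class. Across the alternative settings it lay between 0.51 and 1.22, and the part of the dendritic-like cells in it was not tested. Within the Car4 macrophage-like cluster it was lower in takinib, 524 against 446 CPM. The higher calls in B-like and endothelial-like cells, ratios of 1.32 and 1.27, became -1.004 and -1.58 without the neutrophil profile. In epithelial-like cells Itgb2 stayed past 2-fold, 2.22 with and 1.13 without it, and Itgal, at 1.40 with it, was -3.78 without it. Itgal in endothelial-like and fibroblast-like cells, at 0.81 and 0.67, was at most -1.27 (no takinib UMI left) and -3.11 without it. Neutrophil-like cells had a ratio of 0.15 and T-like cells -0.09.

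**Figure D4:**
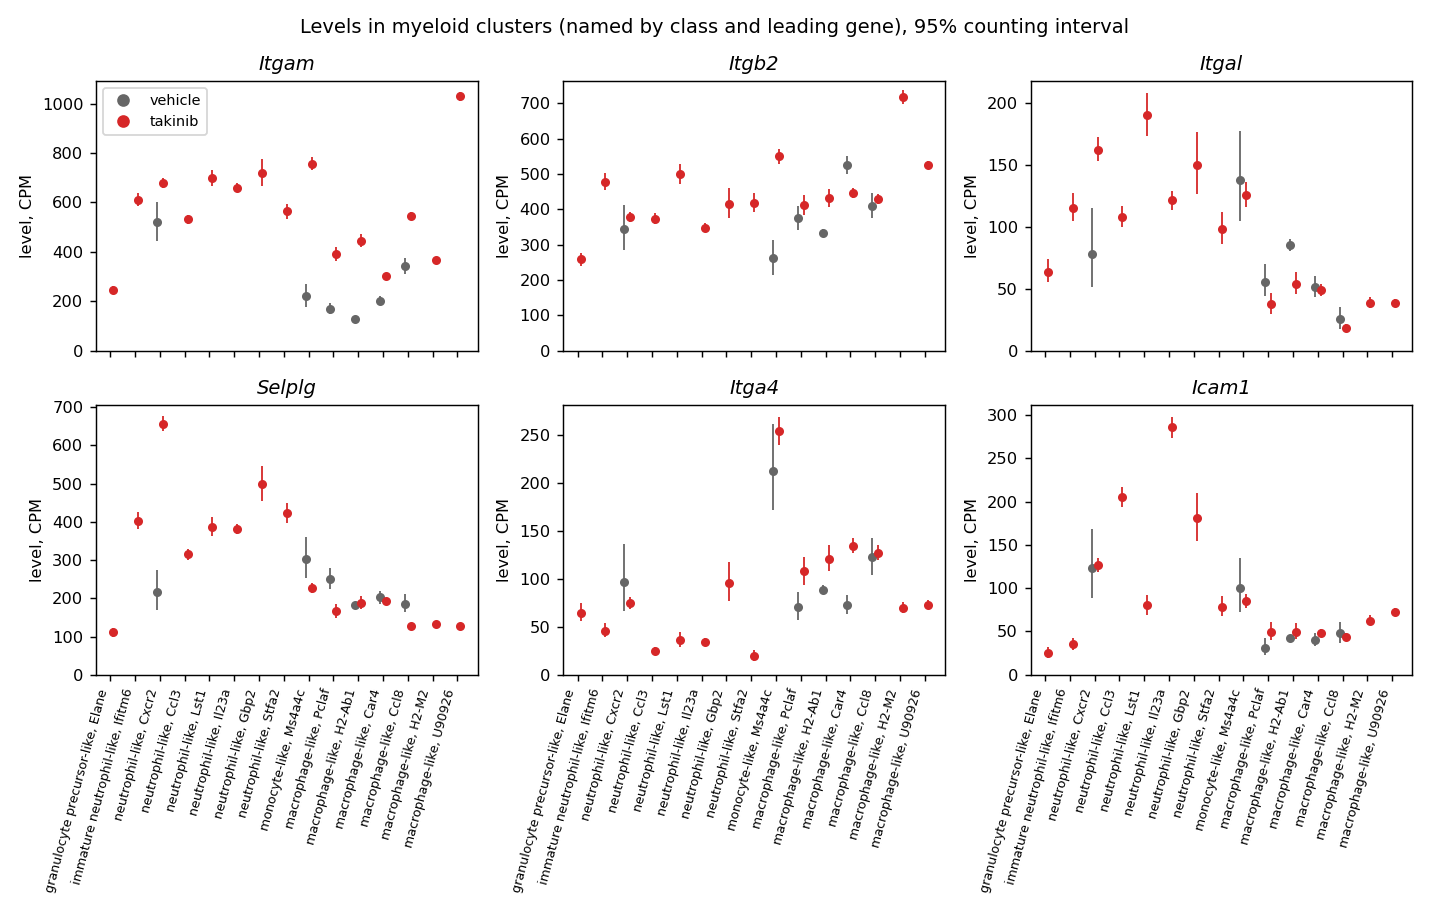
Level in CPM (y axis) of 6 genes in each myeloid cluster, named by class and leading gene (x axis), in vehicle (grey) and takinib (red), with 95% Poisson intervals. Only clusters with at least 50 cells of a library have a point for it. Itgam is higher in takinib in each macrophage-like cluster with both points, and Icam1 is highest in the neutrophil-like cluster led by Il23a.

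Itga4, the alpha chain of VLA-4, was highest in T-like, B-like and monocyte-like cells of vehicle, at 224, 215 and 212 CPM with overlapping intervals. In takinib it was highest in monocyte-like cells at 253 CPM [239, 268], with T-like cells at 203 [188, 219] and erythroid-like cells at 202 [189, 216] not separated from each other. With all UMIs the only compared class past 2-fold was neutrophil-like cells, 101 CPM [70.2, 142] in vehicle and 43.3 [40.8, 45.9] in takinib, a ratio of -1.23. Without the neutrophil profile endothelial-like cells, at -0.74 with it, were at -2.40 (2 takinib UMIs left) and fibroblast-like cells, at -0.62 with it, were at -1.14. At the finer clustering fibroblast-like cells were at 0.44. In the neutrophil-like class 45.0% of all genes were past 2-fold lower and the median gene had a ratio of -0.87, and with TMM factors the ratio of Itga4 was -0.25. Within the cluster led by Cxcr2, which held 257 of the 261 vehicle cells, it was -0.38 [-0.89, 0.19]. In macrophage-like cells the ratio was 0.19, and 0.89 [0.68, 1.10] in the Car4 cluster.

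In that Cxcr2 cluster Selplg was 217 CPM in vehicle and 657 in takinib, a ratio of 1.59 [1.26, 1.95], and Itgal 78.5 and 163, a ratio of 1.05 [0.49, 1.67]. Both were past 2-fold higher, as were 7.42% of its genes. Icam1 at 124 and 127 CPM and Itgb2 at 344 and 378 differed by less than counting error, and Itgam had a ratio of 0.38 [0.16, 0.61]. The summed neutrophil markers of neutrophil-like cells were at 41061 CPM in vehicle and 122989 in takinib, and the part of this difference in the ratios was not tested.

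The takinib library held neutrophils of several stages, and the members differed among them. From granulocyte precursor-like cells (led by Elane and Mpo) to immature neutrophil-like cells (led by Ifitm6 and Ngp) and to the Cxcr2 cluster, Itgam was at 245, 610 and 677 CPM, Selplg at 111, 403 and 657, and Itgal at 64.0, 116 and 163. Itga4 was at 64.7, 45.7 and 74.4 CPM. Icam1 was at 25.1 and 35.2 CPM in the first 2 and at 127 in the Cxcr2 cluster, and it was highest at 286 CPM in the cluster led by Il23a, Ccl4 and Nlrp3 and at 205 in that led by Ccl3. These stages are clusters of 1 library, with no replicate. Vcam1 was at most 15.3 CPM in any of these clusters.

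**Figure D5:**
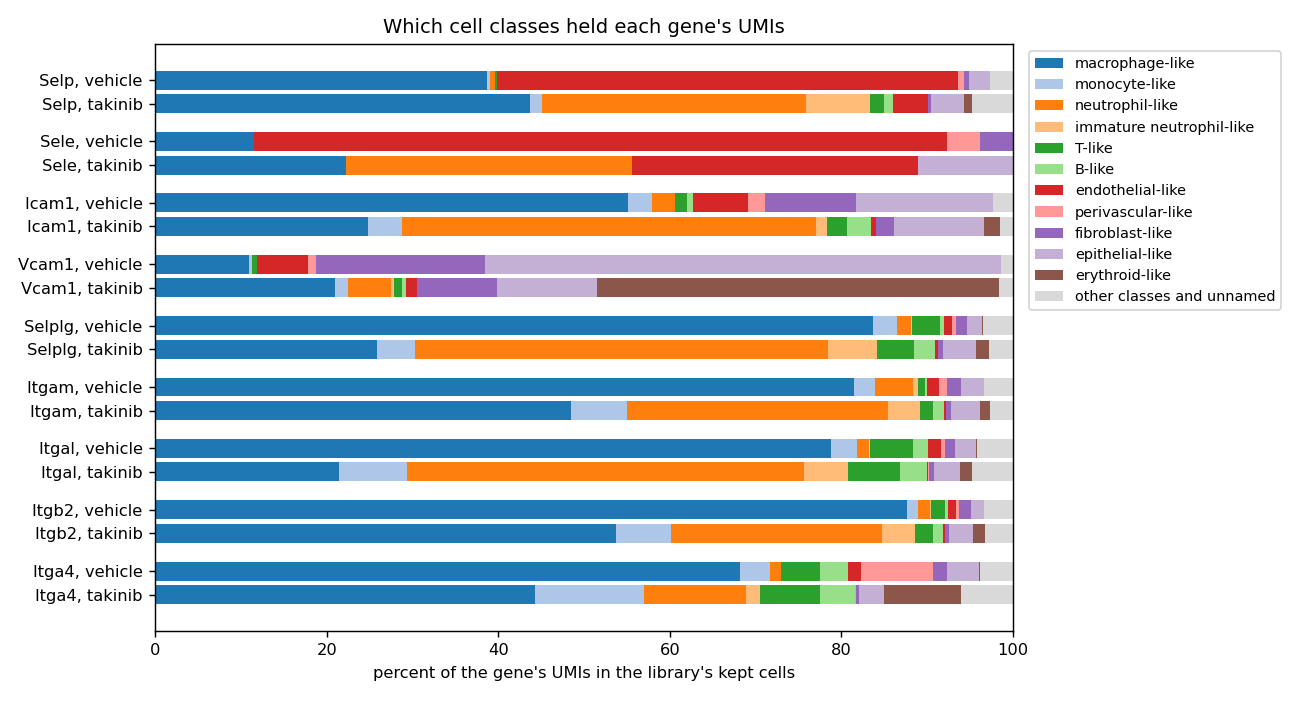
The share of each gene's UMIs (x axis, percent) that each cell class held in each library (rows). Macrophage-like cells held most of the integrin and Selplg UMIs in vehicle, and in takinib neutrophil-like cells held 48.1% of Selplg and erythroid-like cells 46.9% of Vcam1.

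Library-wide values of most members differed from those at equal class weights. Over all kept cells Selplg had a ratio of 0.89 and Itgal of 0.49, and with takinib classes weighted as in vehicle these were -0.02 and -0.58. Itgb2 was at 0.73 and 0.50, Itga4 at 0.37 and 0.10 and Vcam1 at 0.49 and 0.17. Selp was at -1.06 and -0.98, and Sele at -3.04 and -1.28.

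Other adhesion genes were read from 5 lists with 52 genes. Their values are those before the neutrophil profile was taken off, so its part in them was not tested. Of the other integrin chains, 4 of 70 gene and class pairs were past 2-fold higher and 21 lower, at a median log2 ratio of -0.33, against 8.75% and 14.7% of all pairs. Lower values included Itgax, the alpha chain of p150,95, in monocyte-like (-1.80) and fibroblast-like cells (-1.66, from 71 and 29 UMIs). Summed macrophage markers of fibroblast-like cells were 2654 CPM in vehicle and 1401 in takinib. No Itgax value is given for the finer clustering, which set dendritic-like cells apart from monocyte-like cells. Also lower were Itgae, the gene of CD103, in T-like (-1.21) and neutrophil-like cells (-3.26) and Itga5 in endothelial-like cells (-1.23). Itgb3 was lower in epithelial-like (-2.19) and T-like cells (-1.49). Itgb7 was at -1.32 in B-like cells, and Itgav was past 2-fold higher in monocyte-like cells at 2.15 [0.91, 3.79]. Among genes that activate integrins from inside the cell, 20 of 84 pairs were higher and 3 lower (23.8% and 3.57%), at a median of 0.38. The adaptor Fyb was among the 3 highest in 5 classes, at 1.59 [1.51, 1.66] in macrophage-like and 2.55 [2.00, 3.17] in neutrophil-like cells, and Apbb1ip, which encodes the adaptor RIAM, was at 1.92 in B-like and 2.22 in epithelial-like cells.

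Of the ligands of selectins beyond Selplg, Cd44 was at 2.37 in endothelial-like cells, from 42.0 to 217 CPM. Cd34 was at -2.51 in macrophage-like cells, from 65 and 24 UMIs. Summed endothelial markers of macrophage-like cells were 17.7 CPM in vehicle and 4.09 in takinib, and their part in this was not tested. Of the genes that glycosylate selectin ligands, 8 of 58 pairs were higher and 9 lower (13.8% and 15.5%, the latter near the 14.7% of all pairs). The fucosyltransferase Fut4 was at -1.42 in endothelial-like and -3.61 in fibroblast-like cells, the latter from 19 and 2 UMIs. The list of other ligands and endothelial junction genes had 2 higher and 18 lower of 71 (2.82% and 25.4%, against 8.75% and 14.7%), at a median of -0.46. Mcam, the gene of CD146, was at -1.60 [-1.84, -1.37] in endothelial-like cells, from 718 CPM in vehicle to 236 in takinib. The ratio of Mcam was -2.40 in epithelial-like cells, and fibroblast-like cells had -1.86.

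Genes most like each member were read from the correlation of log2(CPM + 10) over 22 sums of a class in a library, among 14959 genes. The sums share libraries, depth and free RNA, so this only describes them. Selplg was most like Fmnl1 (r = 0.95), Cd53 and the member Itgb2, and Itgal was most like Cd52 (0.95), Fmnl1 and Cytip. Itgam was most like Igsf6 (0.97), Alox5ap and C5ar1, and Itgb2 like Tyrobp (0.96), Myo1f and Spi1. Selp was most like Lhx6 (0.87), Arap3 and Clec1a, and Sele, near 0 outside endothelial-like cells, like Tacr1, Aplnr and also Lhx6. The closest match was St3gal1 for Icam1 (0.87), Rab4a for Vcam1 (0.89) and Gpr65 for Itga4 (0.82).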

How the data were processed

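Both deposited matrices hold unnormalized UMI counts, made with Cell Ranger 4 (vehicle) and 6.1.1 (takinib), per the file headers. Per the submitters' processing notes, Cell Ranger 2.1.1, STAR 2.0.4b, featureCounts 1.45, bcl2fastq, Subread and build mm10 were named. No takinib barcode held under 500 UMIs, whereas the vehicle matrix was unfiltered.

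Cells had at least 1000 UMIs, 500 genes and at most 20% mitochondrial UMIs. Doublets were removed with Scrublet (314 vehicle by its own threshold, 1607 takinib as the top 6%, since the threshold marked 0.00373%). Clustering used scanpy 1.11.5 (2000 variable genes without members or list genes, 30 components, 15 neighbours, Leiden resolution 1). The 28 clusters were named from 156 markers of 22 classes, by a rule set after seeing the data. One stayed unnamed (B and macrophage genes), and the monocyte-like cluster also had dendritic genes among its leaders. Summed counts gave CPM. A count of 0 was read as 3 counts. Where 1 library was at 0 and the other under that limit, no ratio was given, a rule added after seeing the data that left out 1570 gene and class pairs and no member (with them, 8.60% and 16.0% of pairs were past 2-fold higher and lower). Named list genes are at most the 3 highest and 3 lowest past 2-fold per class. The members and lists were chosen with earlier results of these data known. Ratios were tested on simulated data. One gene of the lists, and the counts of its list, are not reported here.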

Additional observations from a re-analysis of the deposited data

Results flagged for a closer look

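Vcam1 differed in opposite directions under the same contrast in macrophage-like cells, with a log2 ratio of 1.87 [1.60, 2.14], and in epithelial-like cells, with -1.26 [-1.42, -1.10]. The difference was not tested, since there was 1 library per group. Without the neutrophil profile the values were 1.93 and -1.18. Clusters within each class differed. Among macrophage-like clusters the ratio was 0.32 [-0.56, 1.12] in that led by H2-Ab1 and 1.499 in that led by Ccl8. Among epithelial-like clusters it was at least 4.83 in that led by Mptx1, against -1.57 and -0.89 in those led by Hmga2 and Gkn3.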

How the results depend on the processing

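Across 14 alternatives the count of member and class pairs past 2-fold higher, 19 of 61, was within 1.5 times of that with few exceptions. The exceptions were 8 of 59 without the neutrophil profile and 12 of 28 with vehicle cells of female origin, which left 4 classes. The count past 2-fold lower, 4, was 2 with at most 10% mitochondrial UMIs, 12 without the neutrophil profile, 1 with vehicle cells of female origin (4 classes) and 2 with each class centred on its median gene. Without the neutrophil profile 9 of 59 ratios changed sign, among them the called ratios of Itgb2 in B-like cells (-1.004), Itgb2 in endothelial-like cells (-1.58) and Itgal in epithelial-like cells (-3.78). That subtraction treats all S100a8 and S100a9 UMIs outside the neutrophil lineage as neutrophil RNA and removed 39.2% of B-like and 21.1% of endothelial-like UMIs. Endothelial-like Selp stayed between -2.60 and -1.42 and macrophage-like Itgam between 1.34 and 2.20. Centring gave 25 higher and 2 lower pairs, against 11.2% and 9.90% of all pairs. Sele and takinib endothelial-like cells are limited by depth. No paired analysis was possible because each group had 1 library.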
